A study of Mus musculus with 8 samples.

Results

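Of the 8 arrays of the series, 4 carry RNA of neonatal brain, and the comparison here is between 2 complementary parental duplications within those 4. All mice were T9H/+ heterozygotes, which carry a reciprocal translocation between chromosomes 7 and 15. One group, called maternal-7, had the maternal duplication of proximal chromosome 7 with the paternal duplication of proximal chromosome 15. The other, called paternal-7, had paternal duplication of proximal chromosome 7 with maternal duplication of proximal chromosome 15. Each group is represented by 1 array of neonatal cortex (described as forebrain) and 1 of neonatal cerebellum, chosen by their labels and paired by region. The other 4 arrays, of whole brain at 15.5 and 13.5 dpc (days post coitum), serve as arrays that the choice did not use. The labels state that there are no biological replicates, and they give neither the breakpoints of the duplications nor the number, sex or pooling of the animals. P-values of the main test therefore measure only how far the cortex and cerebellum differences disagree, pooled over probe sets. They do not measure the spread between mice. The sample titles do not say whether both regions came from the same animals. A difference between single animals or litters cannot be told apart from one between the duplications.

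Mammalian imprinted genes are transcribed from the copy of one parent only. Mice with both copies of a chromosome segment from one parent keep the gene number but lack, or double, the active copy of each imprinted gene in it. Chromosome 7 of the mouse holds the imprinted domain whose human counterpart is affected in Prader-Willi and Angelman syndromes. There the long noncoding RNA Snhg14 is made from the paternal chromosome, hosts clusters of small nucleolar RNAs, and runs antisense into Ube3a, a ubiquitin ligase gene that neurons express from the maternal chromosome. Because chromosomes 7 and 15 were duplicated in opposite parental directions, a difference between both groups does not by itself tell which of the chromosomes it belongs to.

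Expression was read as MAS5 signal, a linear intensity per probe set, on the GeneChip 430B array. The array medians of the 4 neonatal arrays lay between 229.8 and 235.3 signal units, and signals under that median are called background here, since no detection calls were used. Of 22511 probe sets, 11752 exceeded the median on at least 2 of the 4 arrays and were tested. Differences are paternal-7 minus maternal-7 on the scale of log2(signal + 58.5), a pseudocount that understates the change of dim probe sets. Each mean difference over both regions is followed by its moderated standard error (SE). In sum, markers of cortical projection neurons and those of the cerebellum and hindbrain separated the regions as labelled, though some single markers of both kinds did not. Summed over 11 genes of cortical projection neurons, the signal was 28866 and 29875 in cortex against 11224 and 9862 in cerebellum. Of these genes, Slc17a7 read 1127 and 2215 in cortex against 234 and 301 in cerebellum. Cux2 read 1036 and 844 against 1073 and 563, and Emx2 1119 and 841 against 998 and 677. Tfap2b, a transcription factor of cerebellar and hindbrain precursors, read 339 and 363 in cortex against 7313 and 6639 in cerebellum. Tfap2b was chosen after its values were seen. The summed signal of the cerebellum and hindbrain markers was 9984 and 7134 in cortex against 17111 and 15766 in cerebellum, Tfap2b included. These markers were thus present on the cortex arrays too. Zic1, another of them, read 6283 and 3646 in cortex against 4795 and 4437 in cerebellum. Markers of midbrain and hypothalamus summed to 4703 and 3712 in cortex and 11247 and 8120 in cerebellum. How far the arrays hold tissue of other regions was not tested.

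The called transcripts of chromosome 7 came from 3 neighbouring genes, and the windows around their starts are shown because these genes moved together. They are the 300 bases from 250 before to 50 after a RefSeq start of GRCm38.p6, 5′ to 3′ on the transcribed strand, with every CG in capitals. Ube3a is shown beside them as a neighbour whose signal did not pass the test.
Snhg14 (chr7:60450128-60450427, minus strand): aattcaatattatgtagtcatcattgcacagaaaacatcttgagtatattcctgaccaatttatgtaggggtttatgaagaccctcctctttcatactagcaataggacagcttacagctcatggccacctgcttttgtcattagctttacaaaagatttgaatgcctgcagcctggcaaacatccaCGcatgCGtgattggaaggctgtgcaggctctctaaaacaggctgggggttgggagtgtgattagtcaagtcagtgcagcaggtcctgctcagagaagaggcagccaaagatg
A230006K03Rik, upstream start (chr7:61311600-61311899, minus strand): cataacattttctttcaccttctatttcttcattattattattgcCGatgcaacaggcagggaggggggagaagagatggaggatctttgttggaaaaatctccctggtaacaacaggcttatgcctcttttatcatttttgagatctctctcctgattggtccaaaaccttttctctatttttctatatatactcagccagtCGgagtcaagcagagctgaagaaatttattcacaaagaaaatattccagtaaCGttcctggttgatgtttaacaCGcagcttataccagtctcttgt
B230209E15Rik (chr7:61615278-61615577, minus strand): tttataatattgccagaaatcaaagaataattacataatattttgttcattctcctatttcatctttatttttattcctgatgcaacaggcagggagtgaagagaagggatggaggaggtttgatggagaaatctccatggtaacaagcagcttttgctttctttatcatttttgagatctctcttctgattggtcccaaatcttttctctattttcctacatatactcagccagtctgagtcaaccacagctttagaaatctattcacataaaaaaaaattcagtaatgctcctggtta
Ube3a (chr7:59228500-59228799, plus strand): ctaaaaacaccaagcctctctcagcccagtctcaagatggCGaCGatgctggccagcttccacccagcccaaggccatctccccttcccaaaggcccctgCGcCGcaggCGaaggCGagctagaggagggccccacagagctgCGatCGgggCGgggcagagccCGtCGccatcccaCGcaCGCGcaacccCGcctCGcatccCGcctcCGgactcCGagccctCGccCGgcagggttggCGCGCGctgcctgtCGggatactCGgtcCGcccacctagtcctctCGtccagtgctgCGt

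The windows of the 3 genes were poor in CG, and that of Ube3a was rich in it. The Snhg14 window held 2 CG and the upstream A230006K03Rik window 4, while B230209E15Rik had 0. The other listed start of A230006K03Rik, at chr7:61089688-61089987, had 2. Ube3a held 29. Over all 32851 RefSeq windows of this length the median was 7 CG, 5.43% held none, and 38.0% held 4 or fewer. The motif TATAAA, searched on both strands, was found in the window of B230209E15Rik and in 13.6% of all windows.

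The upstream A230006K03Rik window and the B230209E15Rik window resembled each other. A global alignment matched 229 of their 300 bases (76.3%), against 156 for B230209E15Rik and the other A230006K03Rik start, and 149 for B230209E15Rik and Snhg14. Their longest shared run was 23 bases, tttatcatttttgagatctctct, which occurred in 2 of the 32851 windows, their own. Runs of 18 bases from the B230209E15Rik window were found, read along the transcribed strand, in 3 windows, its own included; the remaining one was that of Gm29729, also on chromosome 7 and without a probe set of its own name on this array. The Snhg14 window is also the farthest upstream start listed for Snrpn, the gene of a spliceosomal protein. Of the other Snrpn starts, 2 matched it at 253 and 254 of 300 bases, and the most downstream start at 165.

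With the paternal duplication of chromosome 7, a small set of transcripts changed in both neonatal regions. Of the 8 called probe sets with 1 gene symbol, 5 lay in the Snhg14 domain, all higher in paternal-7. In all, 12 of the 11752 tested probe sets (0.102%) passed limma's test with Benjamini-Hochberg adjustment at 0.05, 8 higher in paternal-7 (0.0681%) and 4 lower (0.034%). Among all tested probe sets at least 2-fold apart in both regions, 20 were higher in paternal-7 and 34 lower. The 12 called comprised 8 probe sets of 6 genes, 1 that the annotation assigns to several genes, and 3 without a gene name. For 11 of the 12, the lower side lay below the array median in both regions, so the difference was between a measured signal and background. Since a probe set was tested if 2 of the 4 arrays exceeded the median, those 11 entered the test only through the duplication in which they were bright; with no such filter limma called 0 of 22511, with 1706 at an unadjusted p under 0.05. Without the cortex pair 0 were called and without the cerebellum pair 0, at 329 and 338 unadjusted p-values under 0.05 against 1171 (9.96%) with both, but those fits compare 2 single arrays against the spread of the embryonic pairs. The smallest difference called was 1.90 in size, and a gene short of the threshold is not thereby shown to be equal in both groups. The adjusted p of the last probe set inside the threshold was 0.0425 and of the first outside it 0.0588. In tissue RNA, fewer cells of a type and less RNA per cell cannot be told apart.

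**Figure D1:**
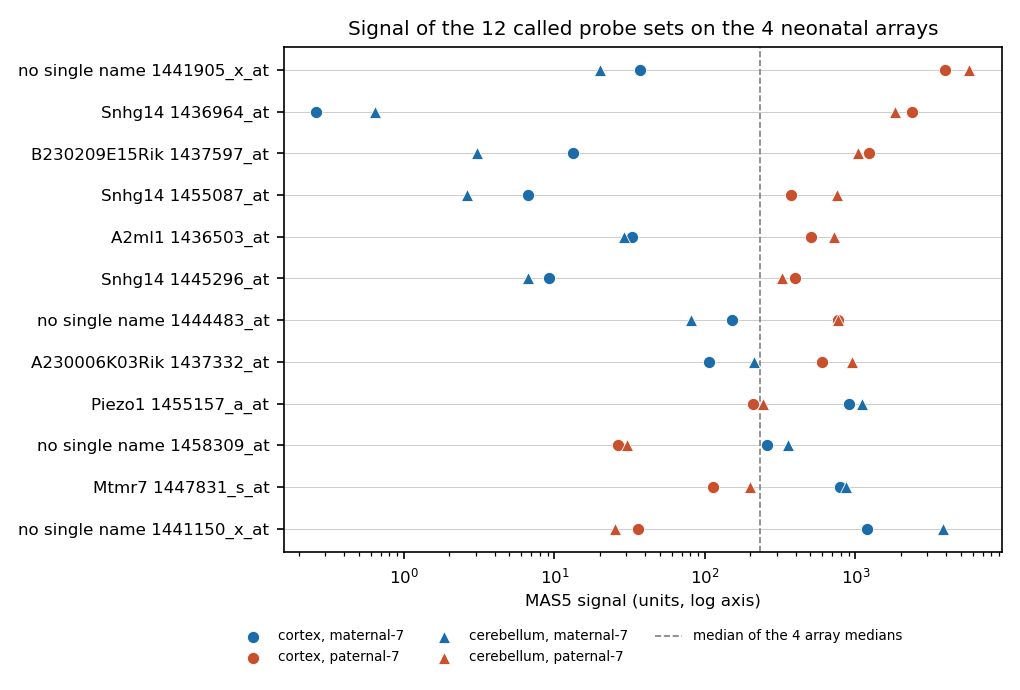
MAS5 signal (log axis, signal units) of the 12 called probe sets on the 4 neonatal arrays, circles for cortex and triangles for cerebellum, blue for maternal-7 and red for paternal-7. In each row both arrays of one duplication lie apart from both of the other; the dashed line is the median of the 4 array medians.

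Snhg14 had 3 probe sets, and all were called. On 1436964_at the signal was 0.262 in maternal-7 cortex and 2372 in paternal-7 cortex, and 0.641 and 1844 in cerebellum. Both maternal-7 arrays were at background and both paternal-7 arrays far above it. The mean difference was 5.19 ± 0.17 (SE, limma adjusted p = 0.00188), and since the low side was at background the signal was at least 8.89-fold higher in paternal-7. Such a bound sets the bright signals against the array median or, where larger, the dim signals, as a ratio of geometric means with no pseudocount. Probe set 1455087_at read 6.71 and 371 in cortex and 2.61 and 760 in cerebellum, maternal-7 first. Again only the paternal-7 arrays rose above background, by 3.23 ± 0.27 (SE, limma adjusted p = 0.0387, at least 2.26-fold). With 1445296_at, the cortex pair read 9.14 and 398 and the cerebellum pair 6.70 and 325. The 3 probe sets thus gave the same direction in both regions, the last with 2.66 ± 0.16 (SE, limma adjusted p = 0.0153, at least 1.53-fold).

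B230209E15Rik and A230006K03Rik, RIKEN cDNA genes farther along the same stretch, were also higher in paternal-7. B230209E15Rik (1437597_at) read 13.4 in maternal-7 and 1227 in paternal-7 cortex, and 3.06 and 1047 in cerebellum. Both maternal-7 signals were at background, so the size of the log2 difference, 4.16 ± 0.16 (SE, limma adjusted p = 0.00188), depends on the pseudocount, and the bound is at least 4.82-fold. A230006K03Rik (1437332_at) read 107 and 597 in cortex and 210.3 and 947 in cerebellum. Both maternal-7 signals were below the array median and both paternal-7 signals above it, a mean difference of 1.94 ± 0.16 (SE, limma adjusted p = 0.0387, at least 3.20-fold). A second probe set of A230006K03Rik, 1437796_at, read 234 and 318 in cortex and 277 and 413 in cerebellum. It pointed the same way in both regions but did not pass the test, at 0.43 ± 0.16 (SE, limma adjusted p = 0.475).

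The probe set with the largest mean difference, 1441905_x_at, is listed for several genes and stays unnamed. It read 37.1 and 3929 in cortex and 20.03 and 5712 in cerebellum, maternal-7 first. Its paternal-7 signals stood at least 20.1-fold above background, a mean difference of 5.79 ± 0.23 (SE, limma adjusted p = 0.00188). By the array's naming, the ending _x_at marks a set whose probes may also match other transcripts.

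Between Ube3a and Peg12, RefSeq lists 252 genes, of which 206 are small nucleolar RNA genes that all lie inside Snhg14 and 13 are microRNA genes. The array reads 7 of the 252 through 12 probe sets with 1 symbol, of which 8 were tested and 5 called. Ipw, a paternally expressed noncoding transcript whose gene lies inside Snhg14, read 707 and 657 in cortex and 510 and 638 in cerebellum. The arrays of both duplications overlapped, with a difference of 0.10 ± 0.18 (SE, limma adjusted p = 0.883). A330076H08Rik was too dim to be tested: 1457557_at read 26.3 and 250.5 in cortex and 109 and 211 in cerebellum, and 1456402_at stayed between 41.7 and 93.3. On both of its probe sets the paternal-7 array was the higher in each region, but only paternal-7 cortex on 1457557_at exceeded the array median. A230057D06Rik was at background throughout, between 3.86 and 21.7.

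Ube3a did not show a difference beyond the spread between regions. On 1431224_at it read 241 in maternal-7 and 279 in paternal-7 cortex, and 238 and 226 in cerebellum. These signals lay close to the array median and overlapped, with a difference of 0.06 ± 0.16 (SE, limma adjusted p = 0.929). The second Ube3a probe set, 1445727_at, was below the median on all 4 arrays, at 113 and 86.2 in cortex and 123 and 75.3 in cerebellum. Atp10a, a phospholipid-transporting ATPase gene also reported as maternally expressed, had 3 probe sets, none bright enough to test, with differences of -0.03, -0.34 and -0.61. Peg3, a paternally expressed zinc finger gene nearer the centromere, was read only by dim probe sets. Its 1447731_at read 107 and 119 in cortex and 103 and 154 in cerebellum, and 1447732_x_at read 5.70 and 49.2 in cortex and 17.4 and 139 in cerebellum. All 8 signals were below the array median, and on both probe sets paternal-7 was the higher in each region. Zim2, next to Peg3, was likewise untested, with a difference of -0.66.

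Around the domain, none of the measured genes expressed from both parental copies passed the test. Of 25 such neighbours chosen, the array held 11, of which 7 were tested by their brightest probe set, and 0 were called by limma, with 0 at an unadjusted p under 0.05. Their median difference was -0.01, against -0.00 over all 6325 genes tested. Gabra5, a GABA-A receptor subunit, had the largest difference of these, reading 2546 and 3547 in cortex and 2024 and 2533 in cerebellum. Its 2 paternal-7 signals were each above the maternal-7 signal of the same region, by 0.39 ± 0.16 (SE, limma adjusted p = 0.506). Gabrg3, another subunit, gave 0.13 on its brightest probe set, 0.98 ± 0.22 (SE, limma adjusted p = 0.285) on a second, and -1.28 on an untested one, 1439717_at, at 244 and 72.2 in cortex and 220 and 50.3 in cerebellum. Its probe sets thus disagreed in sign.

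The called probe sets of chromosome 7 sat in one place along it. When genes were ordered from the centromere and the order cut into 10 equal stretches, 3 of the 5 lay in stretch 5, whose last gene is Snhg14, and 2 in stretch 6. The SD of the mean differences was 0.880 and 0.656 in those stretches and between 0.218 and 0.372 in the other 8. These SDs include the called probe sets, so the larger ones add nothing to the calls, and SDs without them were not computed. Over the whole chromosome, 649 probe sets were tested, with a median of 0.00. Chromosome 15, whose proximal part was duplicated in the opposite parental direction, had 342 tested probe sets and a median of -0.00. It had 0 calls and 0 probe sets at least 2-fold different in both regions. Chromosomes 3, 4, 12, 18, 19 and X also had 0 of both. Over all 8861 placed probe sets, 8 were called and 0.395% were at least 2-fold different in both regions. That share was 1.08% on chromosome 7 and 1.21% on chromosome 9. The SD was 0.256 on chromosome 15 against 0.304 over all 8861 placed probe sets.

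**Figure D2:**
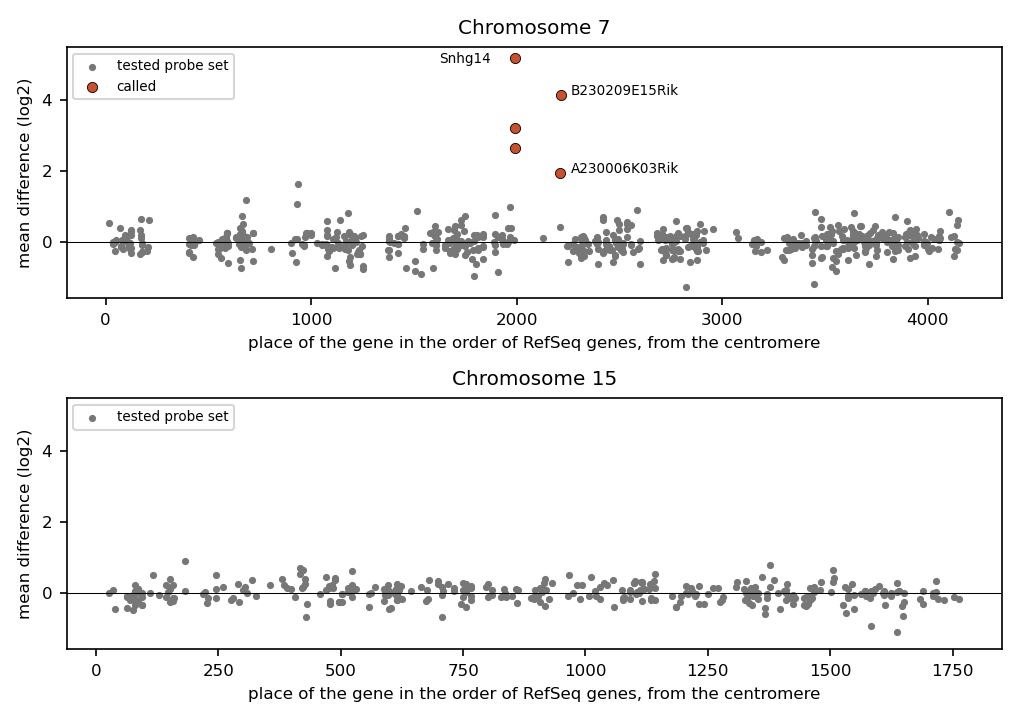
Mean difference of each tested probe set (log2, paternal-7 minus maternal-7) against the place of its gene in the RefSeq order of chromosome 7 (top) and chromosome 15 (bottom), with called probe sets in red. The 5 called probe sets of chromosome 7 lie near places 1990 to 2214, and chromosome 15 has none.

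On chromosome 15, 4 of 6 listed imprinted genes were on the array and tested, and 0 were called by limma. Chrac1, a histone-fold subunit of chromatin remodelling complexes, read 1030 and 711 in cortex and 1139 and 913 in cerebellum. Both maternal-7 signals were above the paternal-7 signal of their region, by 0.40 on the log2 scale with an SE of 0.16, short of the threshold. Kcnk9, a potassium channel gene expressed from the maternal copy in brain, gave 0.07 and 0.27 ± 0.22 (SE) on its 2 probe sets. Ago2, of the small-RNA silencing complex, gave 0.25 ± 0.16 (SE), 0.12 and 0.02. Trappc9, a vesicle trafficking gene, gave -0.12 ± 0.19 (SE), and its dim 1432413_at read 235 and 121 in cortex and 282 and 71.2 in cerebellum. Of the imprinted genes in distal chromosome 7, 3 were tested. Tspan32, a tetraspanin gene, read 1371 and 1946 in cortex and 930.4 and 2240 in cerebellum. That was higher in paternal-7 in both regions, 0.85 ± 0.22 (SE), without passing the test (limma adjusted p = 0.349).

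Outside chromosome 7, A2ml1, Piezo1 and Mtmr7 were the called genes. A2ml1, a protease inhibitor gene of the alpha-2-macroglobulin family on chromosome 6, read 33.0 and 505 in cortex and 28.8 and 723 in cerebellum. It was at background in maternal-7 only, with a difference of 2.89 ± 0.19 (SE, limma adjusted p = 0.0201, at least 2.57-fold). Piezo1, a mechanically gated cation channel gene on chromosome 8, read 905 and 209.7 in cortex and 1113 and 242 in cerebellum. Both maternal-7 arrays exceeded both paternal-7 arrays, and Piezo1 fell by 1.90 on the log2 scale (SE 0.16, limma adjusted p = 0.0387). Mtmr7, a phosphoinositide phosphatase gene also on chromosome 8, read 793 and 114 in cortex and 860 and 199 in cerebellum. It fell below the array median in paternal-7, by 2.07 on the log2 scale (SE 0.19, limma adjusted p = 0.0425), so maternal-7 was at least 3.59-fold higher. Its probe set ends in _s_at, by the array's naming one that can read more than 1 transcript.

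Of the 3 called probe sets without a gene name, 1 was higher and 2 lower in paternal-7. 1441150_x_at read 1195 and 35.8 in cortex and 3841 and 25.3 in cerebellum, at least 9.30-fold higher in maternal-7. 1458309_at read 258 and 26.5 in cortex and 354 and 30.6 in cerebellum, at least 1.31-fold higher in maternal-7. 1444483_at read 151 and 763 in cortex and 81.0 and 769 in cerebellum, at least 3.26-fold higher in paternal-7. Each was at background on the lower side in both regions.

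**Figure D3:**
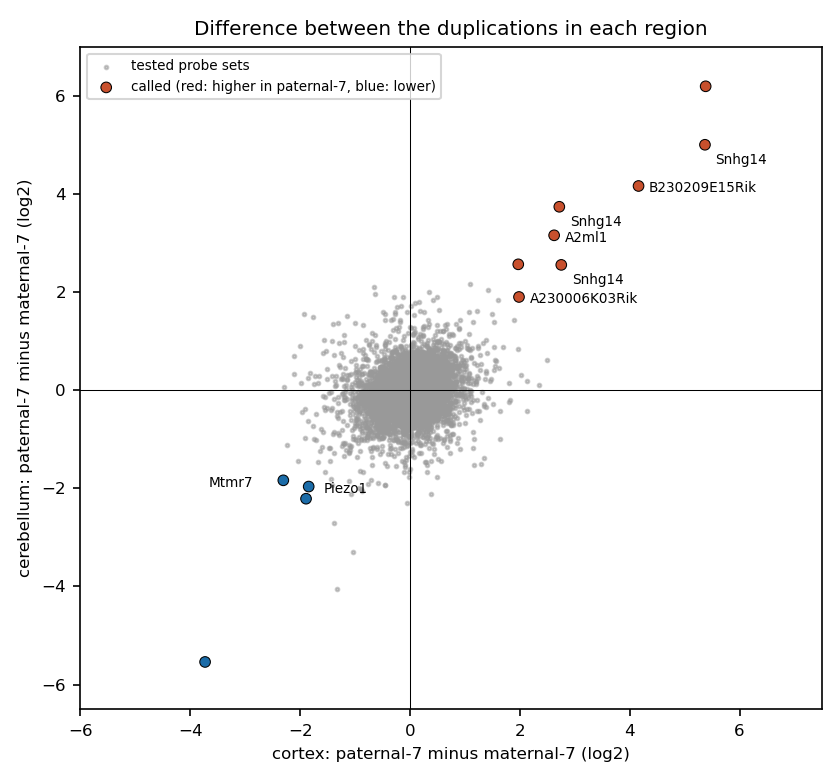
Difference between the duplications in cerebellum (vertical axis) against that in cortex (horizontal axis), both log2, for the 11752 tested probe sets, with the 12 called in colour and named where they carry 1 symbol. The called probe sets lie in the corners where both regions moved the same way, and the cloud of the others is centred near 0.

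Outside the called probe sets the differences in both regions were only weakly related. Across all 11752 probe sets the pair differences correlated at 0.284, and at 0.221 over the 11740 not called. Probe sets on the same arrays are not independent, and all share their 4 arrays. By sign, 28.8% of tested probe sets were higher in paternal-7 in both regions and 28.4% lower in both. At least 2-fold in both regions, 20 probe sets were higher (0.17%) and 34 lower (0.289%), and of these 13 and 24 had 1 gene symbol. Both paternal-7 arrays exceeded both maternal-7 arrays in 17.1% of tested probe sets, and the reverse held in 17.5%.

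Below the called ones, the transcripts with at least 2-fold higher signal in both regions of paternal-7 came from genes of various kinds, none past the threshold. Stk36 (1453584_at), a kinase gene of motile cilia, read 75.1 and 319 in cortex and 84.1 and 363 in cerebellum. Its difference was 1.53 ± 0.16 (SE, limma adjusted p = 0.0707), whereas another Stk36 probe set gave -0.08 ± 0.16 (SE). Ptk2b, a calcium-activated tyrosine kinase gene, read 129 and 638 in cortex and 75.8 and 303 in cerebellum, a difference of 1.66 ± 0.19 (SE, limma adjusted p = 0.0830). Prim2, of the DNA primase, gave 1.73 ± 0.21 (SE, limma adjusted p = 0.101). Zfp575, a zinc finger gene that also lies on chromosome 7, read 152 and 389 in cortex and 111 and 703 in cerebellum. In both regions the paternal-7 signal was the higher, but the difference did not pass the test, at 1.63 ± 0.28 (SE, limma adjusted p = 0.196). Olfml2a and Spink8 gave 1.34 ± 0.19 and 1.20 ± 0.17 (SE), neither past the threshold. All 6 were below the array median on both maternal-7 arrays except Olfml2a, which read 302 in maternal-7 cortex. Those below it thus entered the test only through paternal-7.

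Higher in maternal-7 by at least 2-fold in both regions, again without passing the test, were transcripts of several named genes. Klhl11, a ubiquitin ligase adaptor gene, read 282 and 58.2 in cortex and 337 and 66.1 in cerebellum. It gave -1.61 ± 0.16 (SE, limma adjusted p = 0.0634) on this probe set and 0.05 ± 0.16 (SE) on another. Pisd-ps3, a pseudogene of a phosphatidylserine decarboxylase, read 3141 and 1117 in cortex and 2790 and 753 in cerebellum. Both of its probe sets pointed the same way, at -1.63 ± 0.18 and -1.74 ± 0.20 (SE, limma adjusted p = 0.0774 and 0.0908), and the signal of a pseudogene cannot be told from that of near-identical copies here. Nqo2, a quinone reductase gene, read 415 and 113 in cortex and 524 and 156 in cerebellum, a difference of -1.45 ± 0.16 (SE, limma adjusted p = 0.0774). Apod, a lipid carrier gene, read 1419 and 509 in cortex and 3852 and 545 in cerebellum. Its paternal-7 signals were alike in both regions and its maternal-7 signals were not, so the difference of -2.04 ± 0.32 (SE) had an adjusted p of 0.190 in limma. Paqr5 and Tcf12 gave -1.33 ± 0.16 and -1.44 ± 0.18 (SE), while their other tested probe sets lay between -0.09 and 0.20. Nxpe4 gave -1.19 ± 0.16 (SE, limma adjusted p = 0.131). The probe sets of Klhl11, Nqo2, Paqr5 and Tcf12 that fell, and the dimmer one of Pisd-ps3, were below the array median on both paternal-7 arrays. They thus entered the test only through maternal-7.

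Rps3, a ribosomal protein gene of chromosome 7, showed how far probe sets of a gene could disagree. On 1455600_at it read 2597 and 1099 in cortex and 2502 and 952 in cerebellum, -1.27 ± 0.16 (SE, limma adjusted p = 0.120). Its other probe set gave 0.38 ± 0.25 (SE).

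Taken singly, the cortex pair had 91 of 6103 probe sets at least 2-fold apart (1.49%) and the cerebellum pair 81 of 6114 (1.32%) where a probe set counted if either of its signals exceeded the 75th percentile. These are pairs of single arrays, with no test. In cortex, 46 were higher and 45 lower in paternal-7, and in cerebellum 40 and 41. Beyond the genes already given, the largest named differences in cortex were those of Cabp7, a neuronal calcium-binding protein gene, at 93.7 and 801, and of Men1, the menin gene, at 129 and 762. Ckm, the muscle creatine kinase gene, read 133 and 722 there. In cerebellum Cabp7 read 475 and 756, Men1 613 and 446, and Ckm 223 and 292, so the cortex differences did not recur at that size. Among transcripts lower in paternal-7 cortex, Slc4a8 read 866 and 129 in cortex but 714 and 751 in cerebellum. It is a sodium-bicarbonate transporter gene near the far end of chromosome 15. 4931428L18Rik and AU022252 did the same, at 911 and 167 and at 630 and 116 in cortex. Other tested probe sets did not share the fall in cortex. They gave -0.09 and 0.39 there for Slc4a8, -0.02 for 4931428L18Rik and 0.27 for AU022252. In cerebellum, Pcnt, the gene of the centrosomal scaffold pericentrin, read 2002 and 66.3, and 1061 and 388 in cortex. Fam193a read 907 and 39.5 in cerebellum, although its other tested probe sets gave 0.01 and -0.13 over both regions.

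The direct test of a difference between regions, cortex effect minus cerebellum effect, called 0 of 11752 probe sets in limma, with 219 at an unadjusted p under 0.05. This test borrows its 1 residual degree of freedom from the embryonic pairs. At least 2-fold in opposite directions in both regions were 13 probe sets (0.111%).

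The embryonic arrays carry the same duplications in other tissue and were not used to choose the called probe sets. All 12 had the neonatal sign at 13.5 dpc and 9 had it at 15.5 dpc, 9 in both. At 13.5 dpc the differences of A2ml1, Mtmr7, 1441150_x_at and Piezo1 were near 0, at 0.04, -0.04, -0.07 and -0.11, so their signs carry little weight. Across all tested probe sets, 32% were higher in both embryonic pairs and 28.1% lower. Snhg14 1436964_at read 3.67 and 1197 at 15.5 dpc and 33.9 and 667 at 13.5 dpc, maternal-7 first. Those differences were 4.34 and 2.97, each above those of at least 99.98% of tested probe sets. Snhg14 1455087_at read 2.79 and 869, then 7.54 and 568, and 1445296_at read 38.8 and 288, then 7.00 and 131. All 3 thus showed the neonatal pattern at both ages. B230209E15Rik gave less: 5.27 and 229 at 15.5 dpc and 37.3 and 71.7 at 13.5 dpc, where both signals were below the array median. Its neonatal minus embryonic effect was 2.86 ± 0.56 (SE, limma adjusted p = 0.387). A230006K03Rik 1437332_at read 88.3 and 252 at 15.5 dpc and 154 and 299 at 13.5 dpc.

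A2ml1, Piezo1 and Mtmr7 did not show their neonatal difference in embryos. A2ml1 read 98.9 and 39.7 at 15.5 dpc and 32.7 and 35.4 at 13.5 dpc, all at background. Piezo1 read 803 and 1007 at 15.5 dpc and 1980 and 1828 at 13.5 dpc, so it was measured in both groups and changed sign between the ages. Mtmr7 read 145 and 134, then 82.7 and 79.3, again at background. The neonatal minus embryonic effect was 3.21 ± 0.35 (SE) for A2ml1, -2.001 ± 0.26 (SE) for Piezo1 and -2.01 ± 0.27 (SE) for Mtmr7, with limma adjusted p-values of 0.318, 0.338 and 0.338. Limma called 0 of 11752 probe sets for this difference, with 1093 at an unadjusted p under 0.05. The unnamed 1441150_x_at read 39.7 and 55.4, then 58.6 and 53.0, while 1444483_at read 162 and 456, then 62.2 and 404, higher in paternal-7 at both ages.

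**Figure D4:**
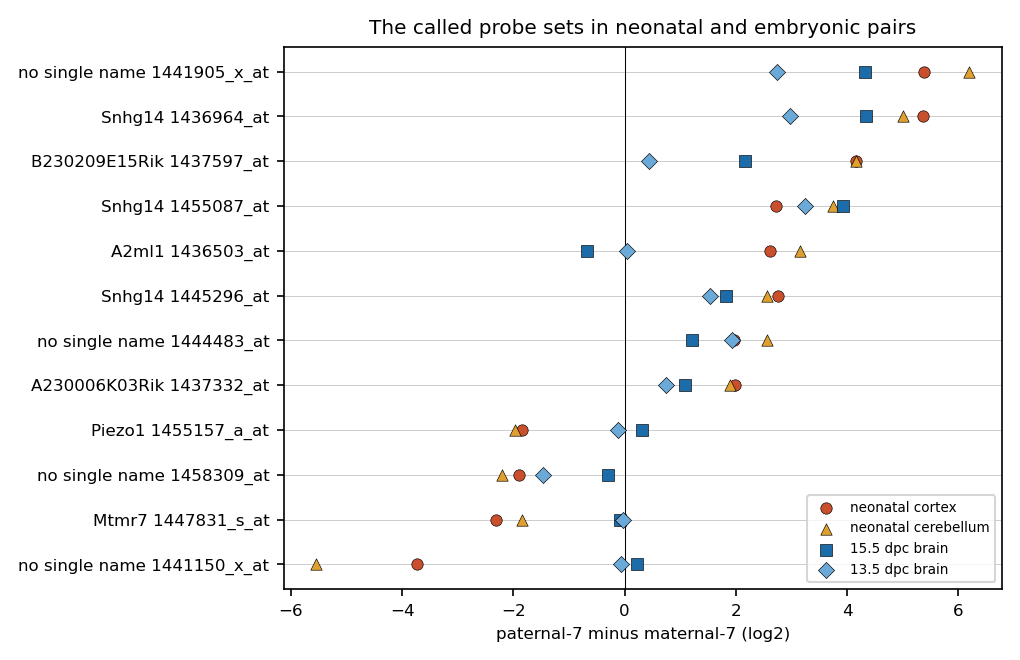
Difference between the duplications (log2, paternal-7 minus maternal-7) of the 12 called probe sets in neonatal cortex and cerebellum and in whole brain at 15.5 and 13.5 dpc, 1 pair of arrays each. The Snhg14 points lie right of 0 in all 4 pairs, and those of A2ml1, Piezo1 and Mtmr7 lie near 0 or change sign in embryos.

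Genes outside the domain were read in lists of pathways and cell types, each gene by its brightest probe set. Over all 6325 genes tested, 28.7% were higher in paternal-7 in both regions, 29.4% lower in both, and 6 were called. Of the lists, the paternally expressed genes of proximal chromosome 7 had 3 called of 4 tested, and the mechanically gated and calcium channels 1 of 7. B230209E15Rik and A230006K03Rik were put on the former list with earlier results of these data known, so its count is no independent support. In the other lists 0 genes were called by limma, so their counts describe signs and not changes.

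More synaptic genes were higher than lower in paternal-7. Of 17 tested, 9 were higher in both regions and 0 lower in both, with a median of 0.10 (0.27 in cortex and 0.03 in cerebellum). Camk2a, the alpha subunit of a calcium-dependent kinase of excitatory synapses, read 1830 and 3068 in cortex and 1075 and 1177 in cerebellum. Dlg2, a postsynaptic scaffold gene, read 4901 and 6480 in cortex and 3222 and 3988 in cerebellum. Their differences were 0.43 ± 0.20 and 0.35 ± 0.16 (SE). Of 9 genes of GABA signalling, 5 were higher and 2 lower in both regions, with a median of 0.16. Gad2, which makes GABA, was one of the lower ones, at 3840 and 3270 in cortex and 4484 and 3276 in cerebellum.

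Of 10 monoamine genes, 5 were higher in paternal-7 in both regions and 1 lower, with a median of 0.29. Maoa, which degrades serotonin and noradrenaline, read 806 and 1262 in cortex and 1120 and 1933 in cerebellum. Its difference of 0.68 ± 0.16 (SE) did not pass the test (limma adjusted p = 0.310), and Maob gave 0.51 ± 0.17 (SE). Tph2, the serotonin-synthesising enzyme of brainstem neurons, went the other way, at 789 and 570 in cerebellum, and was at background in cortex. Htr2c, a serotonin receptor gene whose transcript is edited and carries a sequence complementary to a small nucleolar RNA of the Snhg14 domain, read 1178 and 1221 in cortex and 1667 and 2416 in cerebellum. That difference was 0.28 ± 0.19 (SE, limma adjusted p = 0.670).

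Of 5 activity-regulated genes tested, 3 were higher in both regions and 0 lower. Egr3, an immediate early transcription factor, read 358 and 900 in cortex and was at background in cerebellum, at 53.5 and 66.6. Nr4a3, a nuclear receptor of the same response, read 1566 and 3590 in cortex but 309 and 125 in cerebellum, the opposite order.

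Among genes of RNA binding and splicing the larger count was on the lower side. Of 16 tested, 11 were lower in paternal-7 in both regions and 1 higher, with a median of -0.15. Sf3b1, a spliceosome subunit, read 2201 and 1237 in cortex and 1786 and 1468 in cerebellum, -0.54 ± 0.19 (SE). Snrnp70, another spliceosome subunit, read 1448 and 1007 in cortex and 1189 and 994 in cerebellum, -0.37 ± 0.17 (SE). The one higher gene was Neat1, the noncoding RNA of nuclear paraspeckles, at 1222 and 1969 in cortex and 731 and 895 in cerebellum. Of 10 chromatin genes, 2 were higher and 4 lower in both regions. Smchd1, a chromosomal protein that takes part in silencing of imprinted and X-linked genes, read 1709 and 1320 in cortex and 1371 and 943 in cerebellum, -0.44 ± 0.16 (SE).

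Markers of other regions and cells were read the same way, and limma called 0 of them. Of 7 tested markers of midbrain and hypothalamus, 0 were higher and 3 lower in both regions of paternal-7 (2 at an unadjusted p under 0.05 in limma), with a median of -0.23, while Shox2, Hcrtr1 and Pmch gave 0.01, 0.07 and 0.18. Otp, a homeobox gene of hypothalamic neurons, read 2659 and 1407 in cortex and 4425 and 2154 in cerebellum, -0.95 ± 0.16 (SE, limma adjusted p = 0.196). Pou4f1, of midbrain and sensory neurons, read 180 and 72.1 in cortex and 1246 and 657 in cerebellum, -0.87 ± 0.16 (SE, limma adjusted p = 0.220). The summed signal of this list was 4703 and 3712 in cortex and 11247 and 8120 in cerebellum. Gpr17, a receptor gene of oligodendrocyte precursors, read 607 and 1327 in cortex and 1190 and 2184 in cerebellum. It gave 0.95 ± 0.16 (SE, limma adjusted p = 0.200), but Pdgfra, a defining marker of the same cells, gave -0.10 ± 0.16 (SE). The part of these regional and cellular markers in the lists above was not tested.

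Among the other marker lists, the median was -0.31 for the 2 tested genes of meninges and fibroblasts, -0.16 for 5 of interneurons and striatum and -0.12 for 2 of vessels, and the 1 tested gene of neural progenitors gave -0.35. It was 0.15 for 3 oligodendrocyte genes and 0.06 for 4 astrocyte genes. Of 11 genes of cortical projection neurons, 4 were higher and 3 lower in both regions, with a median of 0.04. Slc17a7, the vesicular glutamate transporter, gave 0.62 and Cux2, of upper-layer neurons, -0.57. Of 7 cerebellar and hindbrain markers, 0 were higher and 2 lower, with a median of -0.03. The 10 tested genes of ependyma and cilia had 4 higher, 3 lower and a median of 0.04, and the 4 of choroid plexus had 0 higher, 1 lower and a median of -0.07. The Y-linked genes Eif2s3y and Uty were at background on all 4 neonatal arrays, at no more than 58.3, and X-linked Kdm5c gave -0.02 ± 0.16 (SE). Piezo2, a touch receptor channel related to Piezo1, read 131 and 359 in cortex and 214 and 434 in cerebellum. Its difference of 0.995 ± 0.168 (SE, limma adjusted p = 0.196) had the opposite sign to that of Piezo1.

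**Figure D5:**
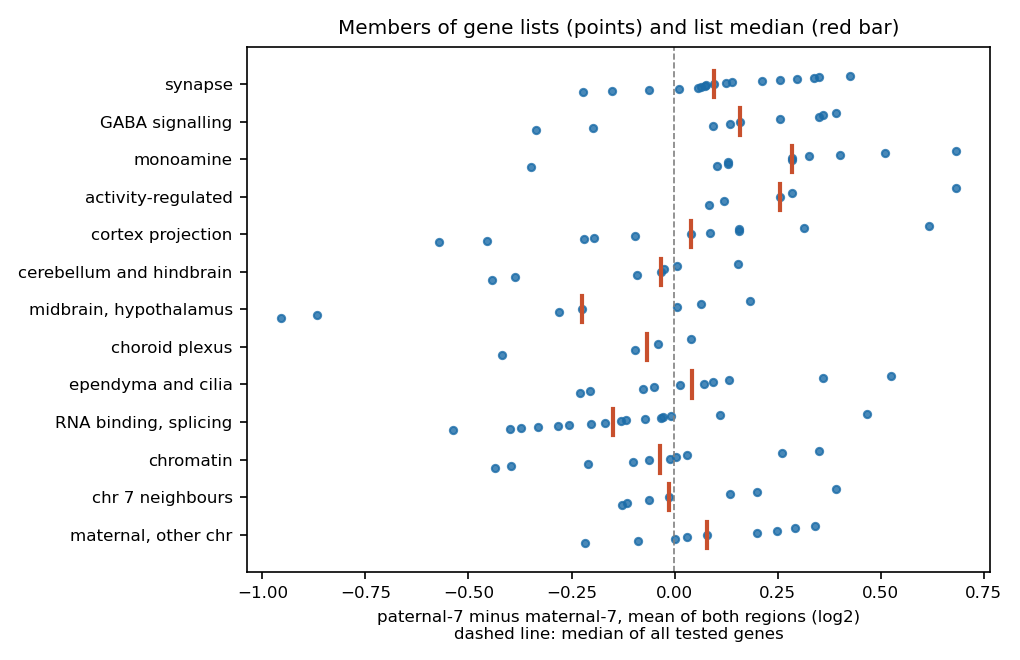
Mean difference over both regions (log2, paternal-7 minus maternal-7) of each tested gene in 13 lists, with the list median as a red bar and the median of all tested genes as a dashed line. The midbrain and hypothalamus list holds Otp and Pou4f1 at the far left, RNA-binding genes lie mostly left of 0, and monoamine genes mostly right.

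Imprinted genes elsewhere in the genome were not called. Of 9 tested maternally expressed genes on chromosomes other than 7 and 15, 5 were higher in both regions of paternal-7 and 1 lower, with a median of 0.08. Meg3, the maternal noncoding RNA of chromosome 12, read 9271 and 7799 in cortex and 9294 and 8143 in cerebellum, -0.22 ± 0.16 (SE). Cobl, an actin nucleator gene, read 1699 and 2252 in cortex and 1780 and 2184 in cerebellum, 0.34 ± 0.16 (SE). Of 4 tested paternally expressed genes there, 1 was higher in both regions and 0 lower, with a median of 0.17. Zdbf2, a paternally expressed gene of chromosome 1, read 2128 and 3310 in cortex and 3030 and 2889 in cerebellum, so its regions pointed in opposite directions.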

How the data were processed

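The deposited values are MAS5 signal intensity per probe set on a linear scale, per the submitters' processing notes; no version of MAS5 is given in the sources used here. Their trimmed mean (2nd to 98th percentile) lay between 497.4 and 498.2 on all 8 arrays, so no further normalization was made. RNA was prepared with Trizol and a column, per the labels' protocols. The 64 control probe sets were set aside. Of the other 22511, the platform annotation gave 1 symbol for 14661 (14660 matched in the RefSeq table of GRCm38.p6), several for 245 and none for 7605. Only the first kind was used to name genes. The files name no genome build, so coordinates and start windows are those of RefSeq GRCm38.p6, found for 9 of the 10 symbols looked up (Mtmr7 had no entry).

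Signals were taken as log2(signal + 58.5), the pseudocount being the 20th percentile of signal, taken as the median of the 8 arrays. Probe sets brighter than the array median in at least 2 of the 4 neonatal samples entered a model in limma 3.58.1 (R 4.3.3), with region as a block (1 residual degree of freedom, moderated over probe sets), and Benjamini-Hochberg adjustment ran over all 11752 p-values, with a threshold of 0.05. Differences between cortex and cerebellum and between neonatal and embryonic effects were fitted on all 8 arrays. The scripts were run on simulated data first, which is no support for single calls. Tables were made with Python 3.11.15, pandas 2.3.3 and numpy 2.4.6. Start windows were aligned globally (match 1, mismatch -1, gap -2).

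Named were the called probe sets, the listed imprinted genes and neighbours, the 12 largest differences of at least 2-fold in both regions in each direction, the 5 largest within each region and of opposite sign, and up to 4 members of a list; A330076H08Rik, A230057D06Rik, Gm29729, Htr2c, Nr4a3 and Tfap2b were added after their values were seen. The groups, lists and named genes were chosen with earlier results of these data known. The alternatives tried were quantile normalization, median centring, other pseudocounts, a floor, other filters on low signal, a variance trend, no block, all 8 arrays and leaving out a pair of arrays.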

Additional observations from a re-analysis of the deposited data

Results flagged for a closer look

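For 5 probe sets with 1 symbol the difference had opposite signs in cortex and cerebellum and exceeded 2-fold in each, the largest such cases among the tested probe sets. Gm5785 (1457727_at) gave -1.77 in cortex, from 256 in maternal-7 to 33.3 in paternal-7, and 1.502 in cerebellum, from 64.1 to 289. Cypt3 gave -1.40 in cortex and 1.36 in cerebellum. Spata3, a gene known from testis, gave 1.29 in cortex and -1.51 in cerebellum. Wnk1, a kinase gene of ion transport, gave 1.17 and -1.52. Gnl3l, a nucleolar GTPase gene, gave 1.15 and -1.17, and its other tested probe set -0.05 ± 0.18 (SE, mean of both regions). Each value compares 2 single arrays, and limma's test of cortex minus cerebellum called none of the 11752 probe sets, with 219 at an unadjusted p under 0.05.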

How the results depend on the processing

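The 12 calls became 15 with quantile normalization and 13 with median centring, and all 12 were among them. They became 7 with a pseudocount of 16, 21 with one of 200, 6 with a floor of 1 and no pseudocount, 19 with a variance trend and 63 among the 5913 probe sets above the 75th percentile on 2 arrays. The pseudocount of 200 called 11 of its 21 lower in paternal-7 and the 75th percentile 41 of its 63, against 4 of 12. With no filter limma called 0 of 22511, with 1706 at an unadjusted p under 0.05. Arrays were paired by region, and the labels carry no replicate numbers; without that region block 4 were called, and with all 8 arrays 3. Without a region's pair the count was 0 to 0, the remaining pair being assumed to vary like the embryonic pairs. At least 2-fold within a pair were 54 probe sets in cortex and 53 in cerebellum with a pseudocount of 200, and 352 and 383 above the median. Snhg14 1436964_at stayed called in 9 of 12 alternatives and B230209E15Rik in 8, and the other named called genes in 5 to 7, with no sign turned. Dim signals and the number of arrays limit what could be detected.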

Other observations

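Cilium and striatal genes gave further values, maternal-7 first, none of them past limma's threshold. Tmem212, a gene of multiciliated cells, read 579 and 887 in cortex and 1057 and 1500.2 in cerebellum, a difference of 0.53 ± 0.16 (SE). Hydin, of the ciliary axoneme, read 387 and 526 in cortex and 458 and 590 in cerebellum, and Rfx2, a regulator of cilium genes, read 353 and 249 in cortex and 341 and 331 in cerebellum. Tac1, which encodes substance P, read 370 and 460 in cortex and 363 and 457 in cerebellum, 0.28 ± 0.16 (SE). Foxp1, a transcription factor of striatal and cortical neurons, was lower in paternal-7 in both regions, at 362 and 270 in cortex and 314 and 249.7 in cerebellum. Drd1, the dopamine receptor of striatal neurons, read 942 and 1429 in cortex, where the label describes forebrain, and 207 and 155 in cerebellum.

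Nucleolar and metabolic genes were read as well, and limma called 0, with 0 at an unadjusted p under 0.05. Ncl, the nucleolin gene, read 424 and 328 in cortex and 325 and 246.7 in cerebellum, -0.33 ± 0.16 (SE), and Dkc1, of the small nucleolar ribonucleoproteins, gave 0.01 ± 0.17 (SE). Of 4 genes of hypoxia and glycolysis, 2 were higher and 1 lower in both regions, with a median of 0.01. Of 4 mitochondrial genes, 1 was higher and 1 lower, with a median of -0.10.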
